A study of Arabidopsis thaliana with 9 samples.

Results

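Leaf mRNA of the Arabidopsis line labelled VQ28KO12, a knockout of the gene VQ28 by its label, was set against that of the wild type Col-0 (WT) in 6 libraries, 3 of each genotype, out of 9 in the series. The members of the comparison were the 16050 of 33610 deposited genes with a mean of at least 1 FPKM (fragments scaled to transcript length and to the size of the library) over the 9 libraries. All libraries came from detached rosette leaves of 30-day-old plants, taken without infection. The other 3 libraries came from VQ28OE9, a line that overexpresses VQ28 by its label. They entered the estimate of the spread, and their values are given where they place a locus. The labels name 1 line for the knockout and 1 for the overexpressor. How either was made, and which promoter drives the overexpression, are not told there. Nor do they say that libraries of the same genotype were made from different plants, so the p-values describe variation among the libraries at hand, and that variation may be technical.

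VQ proteins are small plant cofactors named for a pair of neighbouring residues, valine and glutamine, in a short motif with which they bind WRKY transcription factors. WRKY factors bind DNA and control genes of defence, hormone response and leaf senescence. A VQ partner can raise or lower the activity of the WRKY factor it binds, so loss of one has been studied for effects on defence genes in leaves. VQ28 is the published family name of AT4G20000. It lies on chromosome 4 at 10838310 to 10839142, plus strand, in the deposited table, whose genome build is not named. A window of its coding sequence is shown because it holds the motif that names the family. It was read from RefSeq's TAIR10.1 (chr4:10838556-10838633, plus strand), 78 of 627 coding bases, with the codons for valine and glutamine in capitals.
VQ28: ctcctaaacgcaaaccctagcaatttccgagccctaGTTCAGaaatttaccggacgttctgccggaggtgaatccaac

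VQ28 mRNA was not lower on average in the line labelled as its knockout. It stood at 8.36, 10.1 and 0 FPKM in the libraries labelled VQ28KO12 replicates 1 to 3, against 8.70, 0.456 and 6.72 FPKM in WT replicates 1 to 3. Each genotype held 2 libraries at 6 to 11 FPKM and 1 at or near 0, so the genotypes overlapped. In units, the whole-number counts of the deposited table of which about 4 make 1 sequenced fragment, these levels were 546, 558 and 0 against 525, 27 and 368. The count of 0 allows up to 3 fragments, or 12 units. The log2 fold change of VQ28KO12 over WT was 0.14 ± 1.17 (SE, edgeR quasi-likelihood test, adjusted p = 1), with a 95% interval of -2.47 to 2.76. The exact two-sided permutation test gave p = 0.9, and with 3 libraries in each genotype it cannot go below 0.1. VQ28OE9 averaged 5620 ± 839 FPKM (SD, n = 3).

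The level of the target mRNA thus did not set VQ28KO12 apart from WT, while VQ28OE9 lay far above both. In VQ28KO12 2 of 3 libraries lay within the range of WT or above it, and WT replicate 2 was itself near 0. The kind of lesion is not given and these data hold no protein level, so the libraries are called by their labels throughout. No other deposited gene overlaps VQ28. Of its 3 neighbours on each side, AT4G19980 and AT4G20006 had no count in any library. The others showed no difference from WT in the VQ28KO12-labelled libraries that passed the test. FRS1, a gene of a transcription factor family related to transposases, averaged 1.76 ± 0.784 FPKM in VQ28KO12 against 1.66 ± 0.366 FPKM in WT. PTAC9, a gene for a plastid nucleoid protein, averaged 19.3 ± 1.63 against 21.2 ± 2.13 FPKM. MORF1, an organelle RNA editing factor gene, averaged 6.29 ± 0.344 against 6.06 ± 0.525 FPKM, and AT4G19985 averaged 10.6 ± 0.352 against 9.37 ± 1.95 FPKM (SD, n = 3 each, adjusted p = 1 for all 4).

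The markers read in these libraries were those of leaf. The VQ28KO12-labelled libraries summed to 64845109 to 95223547 units each and the WT libraries to 64552605 to 71023343, with 20510 to 20956 genes above 0 per library in these 6. The leaf marker RCA, for the activase of Rubisco, averaged 4860 ± 444 FPKM in VQ28KO12 and 4950 ± 526 FPKM in WT (SD, n = 3 each), while all 6 root markers and 4 of 5 seed markers were at 0. The share of units from the plastid genome was 0.116%, 0.103% and 0.201% in VQ28KO12 replicates 1 to 3 and 0.106%, 0.207% and 0.0872% in WT replicates 1 to 3. The median log2 fold change of the 59 tested plastid-encoded genes was 0.43. In normalized units 4 of them were higher and 2 lower without overlap, where 5.4% and 4.44% of all tested genes were.

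Few genes separated the genotypes by a test. A single gene of 16050 passed edgeR's test at an adjusted p under 0.05, the retroposon locus SADHU3-2, which is a share of 0.00623%, and it was higher in VQ28KO12. Before adjustment 808 genes (5.03%) had p under 0.05, about the share that this threshold gives without any difference between the genotypes. Of these, 447 were higher and 361 lower, and after adjustment 3 genes were under 0.1. DESeq2, another count test, called 39 genes, 27 higher and 12 lower. All 39 had FPKM values without overlap between the genotypes, so that the 3 libraries of one lay above the 3 of the other. Such separation was found in 1284 genes higher in VQ28KO12 (8.0% of those tested) and in 443 lower (2.76%), and 74.3% of the separated genes were therefore higher. After scaling the units by edgeR's TMM factors there were 867 higher (5.4%) and 712 lower (4.44%), or 54.9% higher. On both scales together 855 were higher and 433 lower. Full separation of 3 libraries from 3 has an exact two-sided permutation p of 0.1. A share of about 0.1 of genes would thus separate, in one direction or the other, without any difference between the genotypes. Separation alone therefore does not mark a gene as changed. The median log2 fold change over all genes was 0.0013 by edgeR and 0.0424 in log2(FPKM + 1), so counts by process are given below on the TMM-scaled units.

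SADHU3-2 is a member of the Sadhu family of non-coding retroposons, elements that spread by reverse transcription and whose expression is known to vary between Arabidopsis accessions. The locus (AT3G42658.1, chromosome 3, 14749400 to 14750294, minus strand) spans 895 bases with a GC content of 44.8%. The transcribed end of the reference copy is shown because a run of 21 A, in capitals, stands in the genome itself, the mark of an RNA copied back into DNA. The first 300 bases are shown as the start of the element, since this is the copy at which the counts were assigned. Both are on the minus strand in TAIR10.1 (chr3:14749995-14750294 and chr3:14749400-14749459).
SADHU3-2 first 300 bases: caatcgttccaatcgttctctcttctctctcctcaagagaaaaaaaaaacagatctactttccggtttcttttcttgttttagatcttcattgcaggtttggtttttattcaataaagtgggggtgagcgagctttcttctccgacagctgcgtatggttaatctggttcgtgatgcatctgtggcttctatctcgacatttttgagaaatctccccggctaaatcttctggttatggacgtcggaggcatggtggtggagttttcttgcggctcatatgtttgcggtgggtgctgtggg
SADHU3-2 last 60 bases: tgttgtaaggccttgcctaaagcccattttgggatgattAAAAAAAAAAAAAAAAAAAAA

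SADHU3-2 stood at 9.70, 6.81 and 8.73 FPKM in the libraries labelled VQ28KO12 and was listed without a count in all 3 WT libraries. These levels were 681, 402 and 760 units, and VQ28OE9 held 4, 9 and 8 units. The locus was thus well above 0 in every library of the knockout-labelled line and at or close to 0 elsewhere. A floor of 12 units per WT library puts it at least 41.9-fold higher in VQ28KO12 than in WT, and it rose with an edgeR adjusted p of 0.000619. Against VQ28OE9, in a comparison that shares the VQ28KO12 libraries, its log2 fold change was 6.32 ± 0.36 (adjusted p = 0.00221); in that comparison 1016 of the 16050 genes, or 6.33%, passed the test. It passed in all 18 other settings run for it, with adjusted p between 7.59e-17 and 0.0279. Reads of a repeat can be shared out among near-identical copies, so the count at this copy is uncertain as far as the authors' counting, whose rules the labels do not state, could split them.

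None of the other Sadhu loci passed the test or stood at 0 in WT while well above 0 in VQ28KO12. Of 14 loci, 5 reached the level for testing and 5 were at 0 in all 9 libraries, SADHU3-1 among them. SADHU1-1 stood at 61.4, 69.0 and 80.8 FPKM in VQ28KO12 against 56.6, 63.4 and 60.9 FPKM in WT (log2 fold change 0.18 ± 0.14, adjusted p = 1). SADHU4-1 stood at 19.6, 14.9 and 21.5 against 15.0, 14.6 and 13.0 FPKM (0.35 ± 0.15, adjusted p = 0.982). In both the libraries of the genotypes overlapped. SADHU7-1 (0.66 ± 0.37) and SADHU1-3 (-0.76 ± 0.44) had adjusted p = 0.989 each and also overlapped. SADHU10-1, under the level for testing, did not overlap, at 0.838, 0.724 and 0.843 FPKM in VQ28KO12, 0.204 to 0.252 FPKM in VQ28OE9 and 0.541, 0.674 and 0.373 FPKM in WT. The tested genes nearest to SADHU3-2 did not pass the test either. The proton pump gene HA8, 21190 bases away, averaged 1.60 ± 0.679 FPKM in VQ28KO12 and 1.94 ± 0.506 FPKM in WT (SD, n = 3 each). On the other side AL3, 127664 bases away, averaged 36.9 ± 1.41 FPKM in VQ28KO12 and 33.3 ± 2.83 FPKM in WT.

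**Figure D1:**
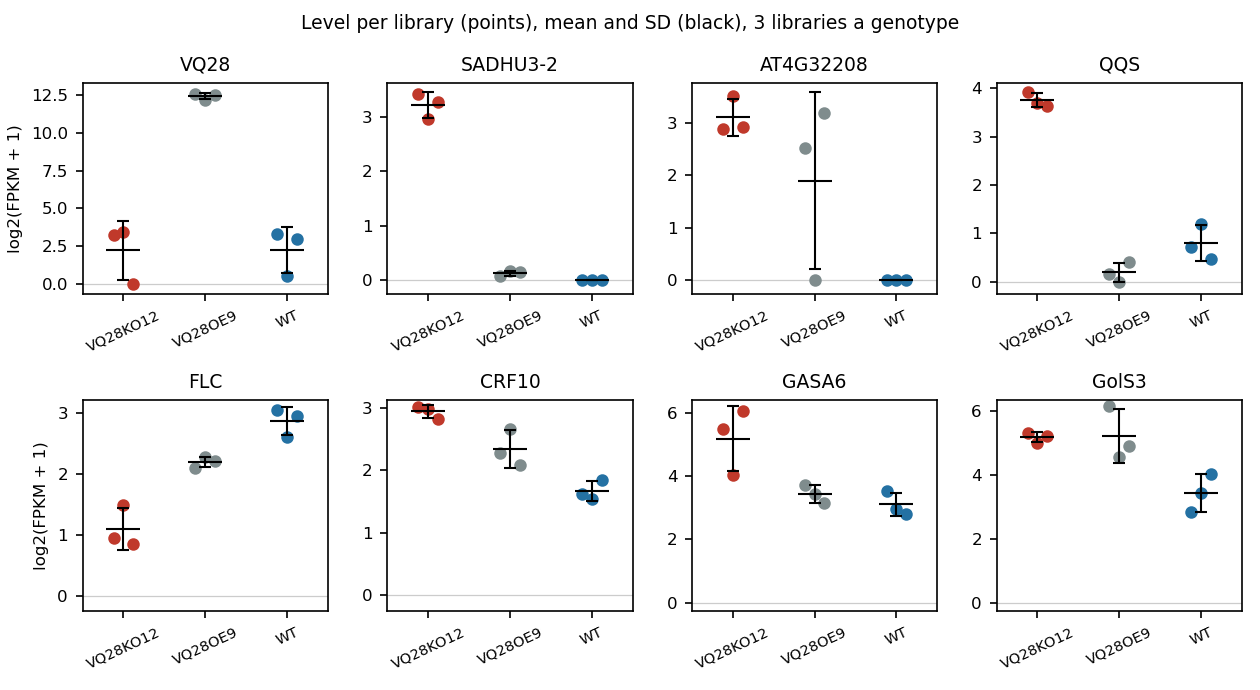
Level of 8 loci in each library, as log2(FPKM + 1), in VQ28KO12, VQ28OE9 and WT, with the mean and SD of 3 libraries in black; each panel has its own scale. SADHU3-2, AT4G32208, QQS, CRF10, GASA6 and GolS3 lie higher and FLC lower in VQ28KO12 than in WT without overlap, while VQ28 overlaps between these 2 genotypes. Of the 8 loci SADHU3-2 alone passed edgeR's test for VQ28KO12 against WT.

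A second locus was at 0 in WT and well above it in VQ28KO12, and 3 more separated the genotypes at very low levels. AT4G32208, described in the deposited table as an Hsp70 family gene, held 344, 474 and 443 units in VQ28KO12, 236, 0 and 439 in VQ28OE9 and none in WT. Genes of this family have near-identical copies, so its counts are uncertain. At the same floor it stood at least 29.9-fold higher in VQ28KO12 than in WT, but the VQ28OE9 libraries varied widely and the edgeR adjusted p was 0.808. With the 6 libraries compared alone the adjusted p was 0.0152, and without VQ28OE9 replicate 2 it was 0.00813. TIF3C2, a translation initiation factor gene, had 36, 26 and 13 units in VQ28KO12 and 0 in WT, at least 1.81-fold. In the other direction the methyltransferase gene PXMT1 had 0 units in VQ28KO12 against 12, 38 and 12 in WT (at least 2.02-fold lower), and the non-coding RNA AT2G35637 had 0 against 18, 25 and 12 (at least 1.79-fold lower). These last 3 had a mean of under 1 FPKM and were not tested. No other gene of the table had 0 in all libraries of 1 genotype and at least 12 units in each of the other.

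QQS is a gene found in Arabidopsis thaliana alone, named for its link to starch content, and its expression is known to differ between accessions. It codes for a short protein, and its whole coding sequence of 180 bases is shown because a locus this short gives few fragments. It was read from TAIR10.1 and spliced (chr3:12349461-12349726, plus strand), with the start and stop codons in capitals.
QQS: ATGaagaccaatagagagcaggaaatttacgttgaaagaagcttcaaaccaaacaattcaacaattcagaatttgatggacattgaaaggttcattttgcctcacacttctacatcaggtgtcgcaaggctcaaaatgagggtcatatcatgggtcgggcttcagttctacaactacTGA

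QQS stood at 14.1, 12 and 11.5 FPKM in VQ28KO12, at 0.118, 0 and 0.324 FPKM in VQ28OE9 and at 0.642, 1.3 and 0.375 FPKM in WT. Each VQ28KO12-labelled library lay well above all 6 others, and the spread was wider in WT than in VQ28KO12 on a log scale. The fragments behind these levels were 440 in VQ28KO12 and 24 in WT, which after scaling is 15.3-fold (10.1 to 24.1, a 95% interval for counting error only). The log2 fold change was 3.94 ± 0.65 and did not pass edgeR's test (adjusted p = 0.399). It passed with units divided by 4, so that 1 was about 1 fragment (adjusted p = 0.0429), with limma on log2(FPKM + 1) (0.000476) and with DESeq2 (1.03e-08), and over its 18 settings the adjusted p ran from 1.03e-08 to 1. Against VQ28OE9 it was 6.33 ± 0.77 (adjusted p = 0.00533). Its nearest tested neighbours AT3G30390, with 74.4 ± 2.39 FPKM in VQ28KO12 and 87.1 ± 5.30 FPKM in WT, and ERD5, with 31.3 ± 10.5 and 26.8 ± 9.07 FPKM (SD, n = 3 each), did not pass the test.

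FLC, a MADS-box gene that represses flowering, was at lower levels in VQ28KO12 than in WT in every library. It stood at 0.926, 1.79 and 0.789 FPKM in VQ28KO12, at 3.28, 3.82 and 3.61 FPKM in VQ28OE9 and at 7.22, 5.10 and 6.67 FPKM in WT. The 3 genotypes did not overlap and lay in that order from low to high. The fragments were 72 in VQ28KO12 and 350 in WT, a scaled ratio of 0.171 (0.131 to 0.221). The log2 fold change of -2.49 ± 0.31 missed the threshold by edgeR (adjusted p = 0.0898) and passed it in 5 of 18 other settings, among them the fit without VQ28KO12 replicate 2, the highest of its 3 libraries (-2.92, adjusted p = 0.0079). Over the 18 settings the adjusted p ran from 6.38e-12 to 0.561.

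Other flowering time genes gave little sign of a shared shift. The list of flowering time genes had a median log2 fold change of 0.01 over 13 tested members. Without overlap 1 was higher and 2 were lower, beside 5.4% and 4.44% of all tested genes. The FLC relative MAF5 stood at 1.39, 1.53 and 0.536 FPKM in VQ28KO12 against 5.75, 2.36 and 1.57 FPKM in WT (-1.54 ± 0.65, adjusted p = 0.982, and -0.84 without WT replicate 1). SOC1, a flowering promoter that FLC represses, stood at 38.9, 33.2 and 30.7 against 25.7, 30.6 and 29.8 FPKM (0.20 ± 0.15, adjusted p = 1). The MAF1, MAF2, MAF3 and MAF4 genes overlapped between the genotypes, with log2 fold changes from -0.32 to 0.02. FT, which codes for the mobile flowering signal, stayed under 1 FPKM in all 6 libraries and was not tested.

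The gene CRF10, a cytokinin response factor of the AP2/ERF class, had the smallest spread among the large differences. It stood at 7.09, 6.90 and 6.09 FPKM in VQ28KO12, at 3.82, 5.35 and 3.23 FPKM in VQ28OE9 and at 2.06, 1.92 and 2.58 FPKM in WT. The log2 fold change was 1.56 ± 0.20 (adjusted p = 0.0898). The upstream open reading frame gene AT1G68552 has the same coordinates and strand in the deposited table, so reads of the 2 cannot be told apart. Over 18 other settings the log2 fold change was 1.28 to 1.71, with adjusted p from 3.40e-09 to 0.829.

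The rest of the 10 largest differences in each direction had a larger SE than CRF10, and none passed edgeR's test. GASA6, a gibberellin-regulated peptide gene, stood at 43.4, 15.4 and 64.7 FPKM in VQ28KO12 against 10.5, 6.85 and 6.03 FPKM in WT (2.36 ± 0.46, adjusted p = 0.682). EXPA8, an expansin gene, stood at 7.59, 2.57 and 16.5 against 2.40, 1.04 and 1.28 FPKM (2.46 ± 0.69, adjusted p = 0.858). The lowest of these VQ28KO12 libraries was replicate 2 and the highest replicate 3, for both genes. Without replicate 3 the value of EXPA8 was 1.61. The non-coding RNA AT2G05914 was also lowest in replicate 2 but highest in replicate 1, with 9.41, 0.383 and 5.49 FPKM against 0.186, 0.115 and 0.0411 FPKM. Its fragments were 452 against 9, a scaled ratio of 41.9 (21.9 to 92.1), and its log2 fold change of 5.35 ± 1.02 (adjusted p = 0.682) was 4.61 without VQ28KO12 replicate 1. It overlaps AT2G05915 on the opposite strand, and whether strand was used in counting is not stated. Without VQ28KO12 replicate 2 both GASA6 (2.76, adjusted p = 0.0255) and AT2G05914 (5.89, 0.0106) passed edgeR's test.

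The last 3 of the 10 on the higher side were a sugar synthesis gene and a pair of less known genes. GolS3 codes for galactinol synthase, which starts the synthesis of raffinose sugars in the cold. It stood at 38.5, 31.3 and 36.4 FPKM in VQ28KO12, at 71.1, 22.8 and 28.9 FPKM in VQ28OE9 and at 6.22, 9.72 and 15.4 FPKM in WT (1.71 ± 0.44 for VQ28KO12 over WT, adjusted p = 0.808). Here the WT libraries were the low ones and the 2 lines overlapped. The germin-like gene AT1G72610 stood at 287, 200 and 142 FPKM in VQ28KO12 against 51.9, 69.7 and 108 FPKM in WT (1.39 ± 0.31, adjusted p = 0.749). AT1G51090, a heavy metal transport and detoxification family gene, stood at 45.8, 32.5 and 29.7 against 8.39, 17.3 and 17.2 FPKM (1.27 ± 0.45, adjusted p = 0.943). For AT1G51090 the VQ28OE9 libraries, at 62.1, 18.9 and 23.7 FPKM, also lay above WT. Those for AT1G72610, at 38.2 to 60.4 FPKM, did not.

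Genes of defence chemistry stood among the 10 on the lower side. CYP81F4 modifies indole glucosinolates, and it stood at 1.36, 0.231 and 0.363 FPKM in VQ28KO12 against 2.27, 12 and 2.23 FPKM in WT (-3.13 ± 0.82, adjusted p = 0.808). The highest value came from WT replicate 2, without which the log2 fold change was -1.85, and without VQ28KO12 replicate 1 it was -4.19. MBP2, a myrosinase-binding protein gene, stood at 3.40, 3.45 and 3.22 against 6.11, 10.1 and 11.9 FPKM (-1.53 ± 0.47, adjusted p = 0.861). NATA1, an acetyltransferase gene of the jasmonate response, stood at 109, 158 and 128 against 196, 431 and 385 FPKM (-1.41 ± 0.56, adjusted p = 0.982). In MBP2 and NATA1 the VQ28OE9 libraries, at 0.88 to 4.42 FPKM and at 54.8 to 286 FPKM, also lay below at least 2 of the 3 WT libraries. The carboxypeptidase-like gene SCPL9 stood at 4.14, 3.25 and 2.11 against 7.71, 7.72 and 10.9 FPKM (-1.53 ± 0.35, adjusted p = 0.75). The lipase gene AT1G54010 stood at 20.9, 24.7 and 20 against 42.8, 54.8 and 52.1 FPKM (-1.24 ± 0.39, adjusted p = 0.925). For SCPL9 and AT1G54010 the VQ28OE9 libraries, at 1.63 to 4.43 and at 3.45 to 14.5 FPKM, lay below all WT libraries. The remaining 4 were the methyltransferase gene AT4G35160 (-1.62 ± 0.54), AT2G25625 (-1.54 ± 0.47, and -2.34 without VQ28KO12 replicate 2), the kinase gene AT5G24080 (-1.50 ± 0.53) and AT1G69480 of the EXS family (-1.41 ± 0.47), with adjusted p between 0.861 and 0.946. VQ28OE9 lay above all WT libraries for AT2G25625, at 18.3 to 42.7 FPKM, and for AT1G69480, at 12.5 to 34.8 FPKM. For AT4G35160 and AT5G24080 it overlapped WT.

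**Figure D2:**
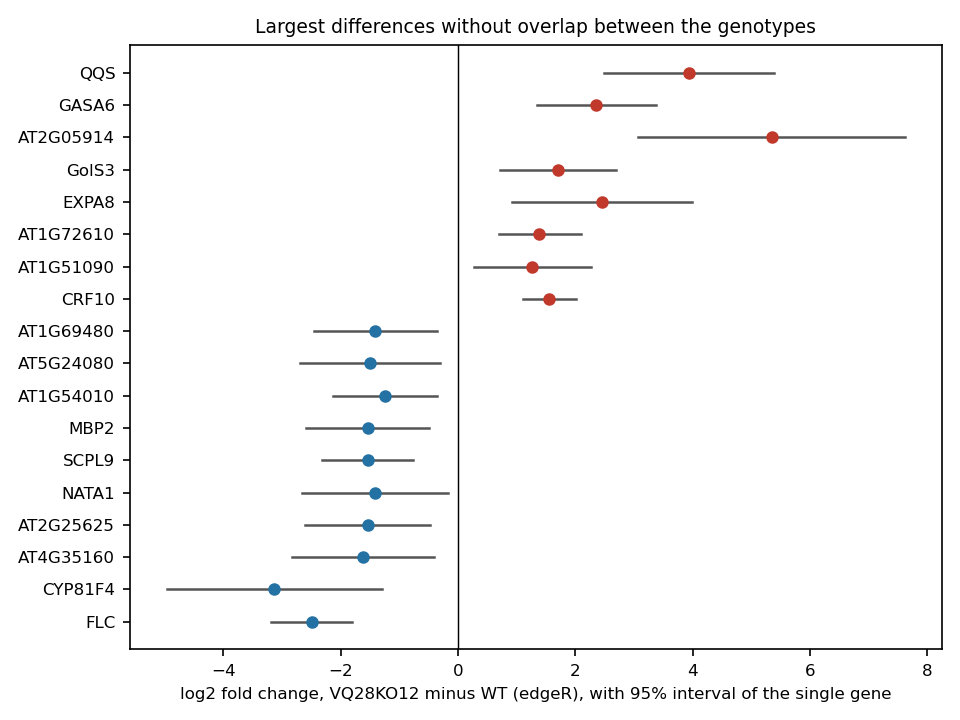
The log2 fold change of VQ28KO12 over WT by edgeR for the 10 largest differences in each direction among genes without overlap, less SADHU3-2 and AT4G32208, which had no WT count, with the 95% interval of the single gene, not adjusted for the number tested. AT2G05914 and CYP81F4 have the widest intervals, from 3.07 to 7.62 and from -4.96 to -1.30, while that of CRF10 runs from 1.11 to 2.01.

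Other genes were called by DESeq2 and not by edgeR, and 4 are given here that were chosen after their values were seen. LBD26, a gene of a plant transcription factor family, stood at 5.08, 5.56 and 3.77 FPKM in VQ28KO12 against 1.27, 1.74 and 1.36 FPKM in WT (edgeR 1.65 ± 0.25, adjusted p = 0.295). MYB94, a regulator of leaf wax synthesis, stood at 4.58, 4.22 and 3.85 against 2.28, 2.32 and 1.92 FPKM (0.91 ± 0.15, adjusted p = 0.399). For MYB94 the VQ28OE9 libraries, at 4.28, 4.71 and 4.36 FPKM, lay with VQ28KO12, while for LBD26, at 2.05, 1.92 and 1.64 FPKM, they lay near WT. AT1G42430 stood at 11.7, 8.35 and 11.0 against 5.32, 5.86 and 5.00 FPKM (0.89 ± 0.16, adjusted p = 0.445). The phosphatase gene AT3G16800 stood at 49.1, 43.4 and 46.3 against 27.0, 28.9 and 21.5 FPKM (0.80 ± 0.14, adjusted p = 0.445). The smallest log2 fold change that DESeq2 called was 0.50, in the auxin response gene IAA16, at 178, 183 and 162 FPKM in VQ28KO12 against 120, 125 and 112 FPKM in WT. PAR1, a gene of the shade response, stood at 3.08, 2.28 and 3.19 against 0.116, 0.553 and 0.862 FPKM, and SAUR22, an auxin-induced gene, at 14.9, 7.75 and 19.8 against 6.08, 5.23 and 4.41 FPKM. Neither these 3, also picked after their values were seen, nor the others named in this paragraph passed edgeR's test.

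By process, no list held a member that passed edgeR's test, and the medians were small beside the differences of the genes above. The interquartile range of the log2 fold change over all tested genes was -0.13 to 0.14. The lists farthest from 0 were guard cell markers at 0.40 (5 tested), heat shock proteins and chaperones at 0.35 (17), wall loosening at 0.31 (16) and salicylic acid defence at -0.32 (19). The next were pattern-triggered immunity at -0.21 (26), camalexin and indole glucosinolates at -0.19 (20) and leaf senescence and dark-inducible genes at -0.16 (17), the last of which was -0.02 without WT replicate 3. Cytosolic ribosomal proteins (162), plastid ribosomal proteins (71), dividing cell markers (3) and the epidermis markers (6) lay within 0.01 of 0.

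**Figure D3:**
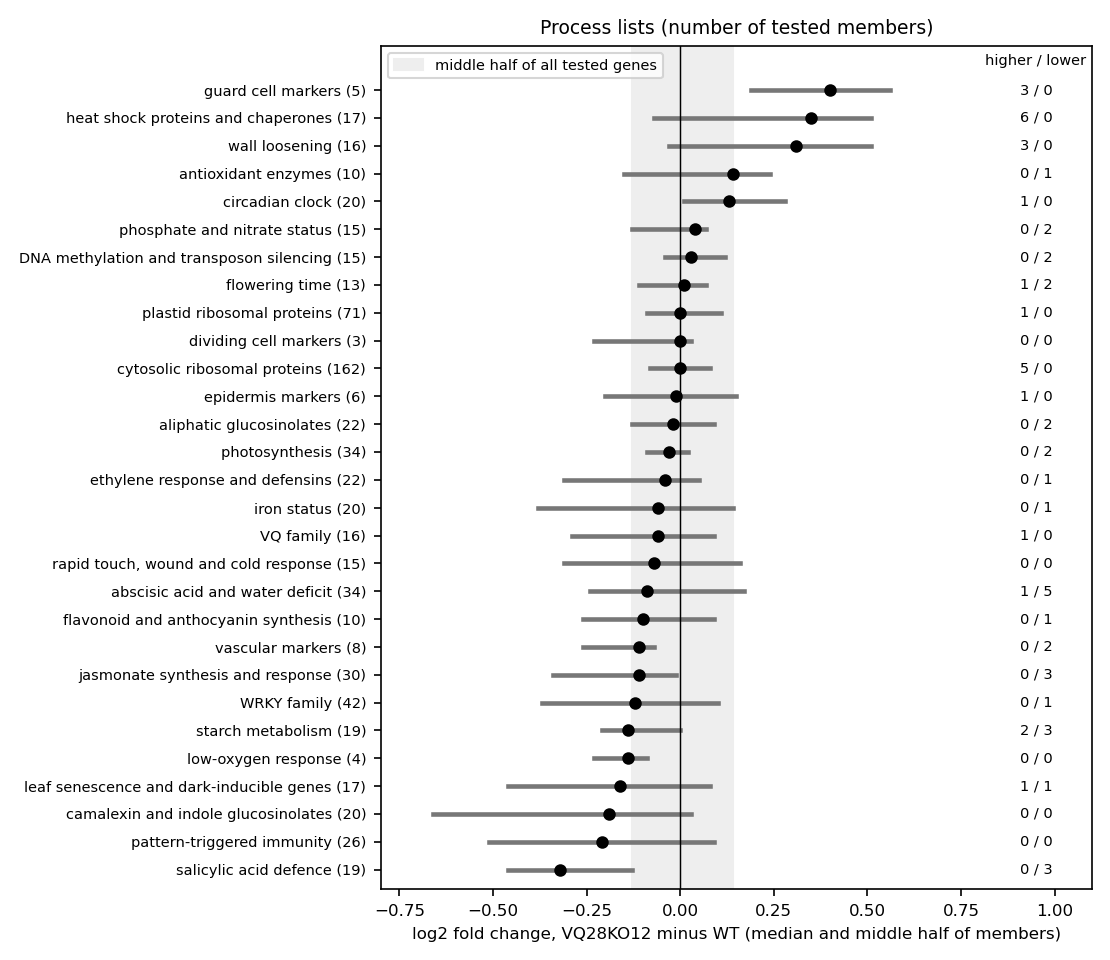
Median (points) and interquartile range (bars) of the log2 fold change of VQ28KO12 over WT by edgeR in 29 lists with at least 3 tested members, the number tested in parentheses. The shaded band is the interquartile range of all tested genes, and the column on the right counts members higher and lower in VQ28KO12 without overlap in TMM-scaled units. Guard cell markers, heat shock proteins and wall loosening lie highest and salicylic acid defence lowest.

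Heat shock proteins and chaperones, which refold or protect other proteins, had 6 of 17 tested members higher without overlap and 0 lower, or 35.3%, against 5.4% higher among all tested genes. Of the 17, 12 had a positive and 5 a negative log2 fold change. Their mean log2(FPKM + 1) was 5.37, 5.77 and 5.28 in VQ28KO12 and 5.07, 5.19 and 5.31 in WT, so the libraries overlapped. HSP70 stood at 282, 454 and 317 FPKM in VQ28KO12 against 203, 221 and 236 FPKM in WT (0.63 ± 0.21, adjusted p = 0.935). HSP101, which pulls proteins out of aggregates, stood at 34.7, 48.2 and 30.5 against 25.0, 21.9 and 24.3 FPKM (0.62 ± 0.18, adjusted p = 0.86). HSFA2, a heat shock factor gene, stood at 32.9, 51.8 and 32.9 against 27.0, 25.5 and 26.5 FPKM (0.53 ± 0.19, adjusted p = 0.946). VQ28KO12 replicate 2 was the highest library in each, and also in the other 3, HSP90.1 (0.63 ± 0.27), HSC70-1 (0.38 ± 0.16) and MBF1C (0.35 ± 0.15). Without that library the list's median was 0.10, against 0.35 with it. HSP101 and MBF1C overlap another gene in the deposited table, and HSP70 copies share sequence. Of the small heat shock proteins, AT5G12020 overlapped at 8.48, 11.7 and 7.6 FPKM in VQ28KO12 against 7.88, 8.80 and 19.0 FPKM in WT, and HSP21 stayed at or under 0.0579 FPKM in all 6 libraries.

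Salicylic acid is a defence hormone made in leaves largely through isochorismate, and it acts through the NPR receptors. Of its 19 tested genes 18 had a negative log2 fold change, a share of 94.7% against 49.7% of all tested genes, and 3 were lower without overlap and 0 higher, where 4.44% and 5.4% of all tested genes were. These genes can vary together and are not replicates of a genotype. Their mean log2(FPKM + 1) was 3.39, 3.54 and 3.18 in VQ28KO12 and 3.59, 3.75 and 3.39 in WT, so the libraries overlapped. ICS1, the isochorismate synthase gene, stood at 4.13, 4.69 and 4.22 FPKM in VQ28KO12, at 8.03 ± 0.721 FPKM in VQ28OE9 (SD, n = 3) and at 6.45, 5.88 and 6.73 FPKM in WT (-0.60 ± 0.14 for VQ28KO12 over WT, adjusted p = 0.75). PR2, a glucanase gene that marks the response, stood at 85.8, 101 and 84.5 FPKM in VQ28KO12 against 135, 224 and 92.8 FPKM in WT (-0.78 ± 0.37, adjusted p = 0.984). PBS3, which acts after ICS1 in the synthesis, stood at 1.34, 0.979 and 0.982 against 0.897, 2.71 and 3.51 FPKM (-1.16 ± 0.66, adjusted p = 0.989), and there WT replicate 1 was the lowest of the 6. EDS1, a lipase-like regulator of immunity, spread widely in both genotypes, at 8.07, 8.72 and 3.87 against 13.7, 11.0 and 3.09 FPKM. The receptor genes NPR1, NPR3 and NPR4 had log2 fold changes of -0.05, -0.14 and -0.01. PR1 stayed at or under 0.0629 FPKM in VQ28KO12 and under 1.2 FPKM in WT and was not tested. The list's median ran from -0.39 to -0.20 over the alternatives.

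**Figure D4:**
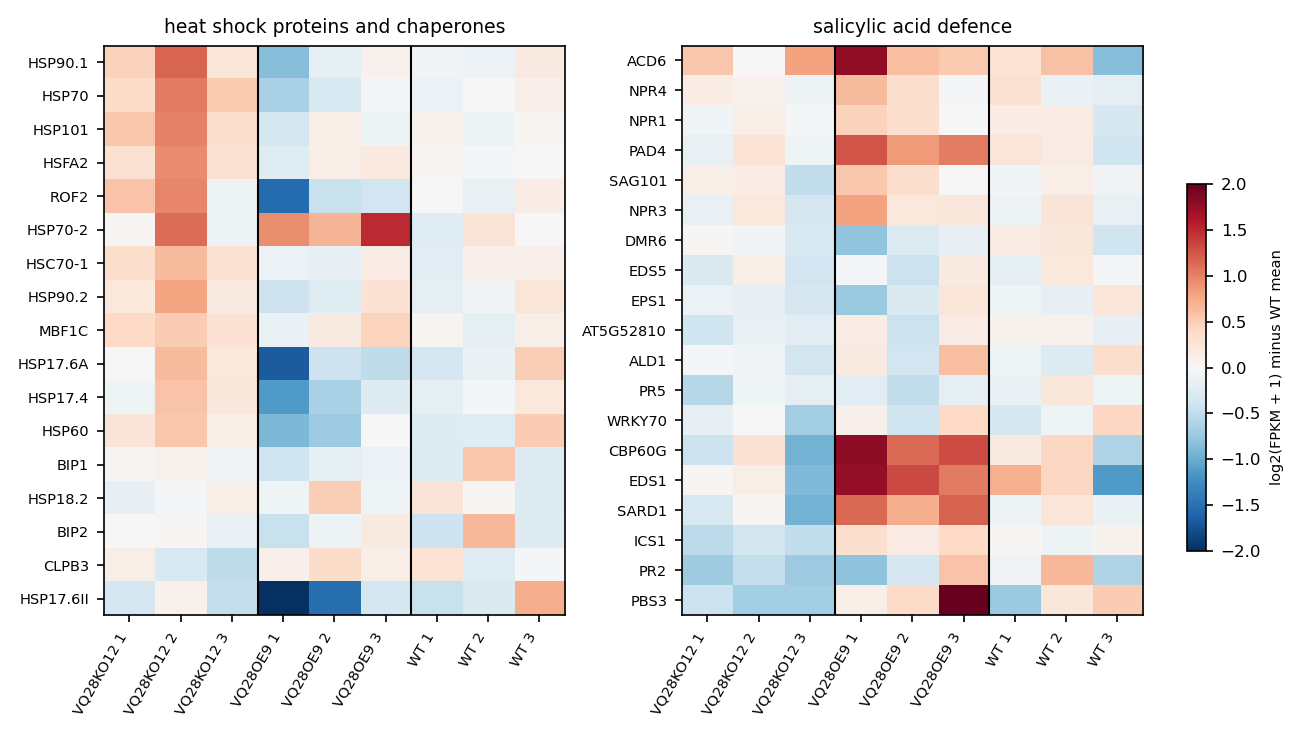
Each tested member of 2 lists in each library, as log2(FPKM + 1) minus the mean of the 3 WT libraries, red higher and blue lower, with VQ28KO12, VQ28OE9 and WT from left to right and members ordered by the fold change of VQ28KO12 over WT. In the heat shock list VQ28KO12 replicate 2 is the reddest column of that line, and in the salicylic acid list CBP60G, EDS1 and SARD1 vary by library in both VQ28KO12 and WT.

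Wall loosening genes, which code for expansins and for the XTH enzymes that cut and rejoin xyloglucan, had 3 of 16 tested members higher without overlap and 0 lower, against 5.4% and 4.44% of all tested genes. Besides EXPA8, these were EXPA5, with 16.2 ± 1.18 FPKM in VQ28KO12 and 10.6 ± 2.72 FPKM in WT (SD, n = 3 each; 0.56 ± 0.20, edgeR adjusted p = 0.943), and XTH32 at 7.82, 8.28 and 7.59 against 5.29, 5.05 and 5.91 FPKM (0.50 ± 0.16, adjusted p = 0.935). All others of the list overlapped. EXPA10 stood at 87.1, 93.4 and 88.9 against 81.6, 92.3 and 232 FPKM (-0.65 ± 0.60), where WT replicate 3 stood apart, and XTH25 at 24.7, 22.7 and 3.68 against 0.709, 2.54 and 13.3 FPKM (1.54 ± 0.93), where the genotypes crossed. The list's median of 0.31 was 0.08 without VQ28KO12 replicate 3.

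Guard cell markers had 3 of 5 tested members higher without overlap and 0 lower, against 5.4% and 4.44% of all tested genes. HT1, a kinase gene of the stomatal response to carbon dioxide, stood at 3.00, 3.32 and 3.37 FPKM in VQ28KO12 against 1.44, 2.21 and 1.99 FPKM in WT (0.73 ± 0.22, adjusted p = 0.861). FAMA, a regulator of guard cell fate, stood at 8.77, 8.29 and 6.59 against 5.30, 5.57 and 6.39 FPKM (0.40 ± 0.16, adjusted p = 0.982), and MYB60, a guard cell transcription factor gene, at 2.89, 2.56 and 2.38 against 2.03, 1.34 and 1.73 FPKM (0.56 ± 0.30, adjusted p = 0.987). The ion channel genes KAT1 (0.19 ± 0.26) and SLAC1 (0.06 ± 0.29) overlapped. VQ28OE9 also lay above WT without overlap for HT1, at 4.47 ± 0.519 FPKM, and FAMA, at 10.1 ± 1.64 FPKM (SD, n = 3 each). In that line MYB60 and SLAC1 overlapped WT, and KAT1 averaged lower, at 4.56 ± 1.32 against 5.23 ± 0.422 FPKM. The mean log2(FPKM + 1) of the 5 tested markers was 2.37 to 2.53 in VQ28OE9 and 1.87 to 2.09 in WT. The higher level was thus not confined to VQ28KO12. The summed level of the 12 markers was 19.8 to 27.2 FPKM in VQ28KO12 and 16.4 to 20 FPKM in WT, and MUTE was at 0 in all 6 libraries. In whole leaves, more cells of a type and more RNA per cell cannot be told apart.

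Other processes gave single genes without overlap and medians closer to 0, and their counts stand beside 5.4% higher and 4.44% lower over all tested genes. Jasmonate synthesis and response had 3 of 30 lower and 0 higher with a median of -0.11, among them LOX3, a lipoxygenase gene of the synthesis, at 935, 988 and 776 FPKM in VQ28KO12 against 1050, 1620 and 1040 FPKM in WT (-0.51 ± 0.19, adjusted p = 0.946). Abscisic acid and water deficit had 1 of 34 higher and 5 lower with a median of -0.09. Its receptor gene PYL4 averaged 20.3 ± 2.85 FPKM in VQ28KO12 and 10.8 ± 2.09 FPKM in WT (SD, n = 3 each; 0.85 ± 0.19, edgeR adjusted p = 0.749), and ABI1, a phosphatase gene that restrains the hormone's signal, at 218, 265 and 252 against 343, 326 and 267 FPKM (-0.39 ± 0.15, adjusted p = 0.971). Starch metabolism, to which QQS was assigned, had 2 of 19 higher and 3 lower with a median of -0.14. The starch synthase gene GBSS1 stood at 150, 128 and 134 against 112, 116 and 86.1 FPKM (0.35 ± 0.14), and the amylase gene BAM1 at 101, 127 and 98.6 against 171, 159 and 132 FPKM (-0.54 ± 0.15, adjusted p = 0.858). The 2 thus stood on opposite sides of WT.

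Genes of DNA methylation and transposon silencing had a median of 0.03 over 15 tested members. Without overlap 0 were higher and 2 lower, beside 5.4% and 4.44% of all tested genes. ROS1, a DNA demethylase gene, stood at 2.47, 2.04 and 1.62 FPKM in VQ28KO12 against 4.61, 3.15 and 3.20 FPKM in WT (-0.89 ± 0.22, adjusted p = 0.808). The maintenance methyltransferase gene MET1 stood at 1.82, 1.13 and 1.22 against 1.29, 1.05 and 1.36 FPKM (0.12 ± 0.23), and HDA6, a histone deacetylase gene of silencing, at 10.1, 9.56 and 10.8 against 9.91, 10.5 and 9.77 FPKM (-0.03 ± 0.14). FWA, a gene kept silent in leaves by methylation, was at 0 in all 6 libraries. None of these 15 tested genes therefore passed the test beside SADHU3-2. The list has 25 members, and the rest lay under the level for testing. Among these was DDM1, at 0.86, 0.305 and 0.509 FPKM in VQ28KO12 against 0.252, 0.369 and 0.309 FPKM in WT.

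Among the partners and relatives of VQ28, the WRKY family had 42 tested members, a median of -0.12, 0 higher and 1 lower without overlap. Over all tested genes 5.4% were higher and 4.44% lower in this way, and the counts of both families stand beside these shares. WRKY69 stood at 12.5, 11.9 and 12.5 FPKM in VQ28KO12 against 12.8, 14.9 and 15.2 FPKM in WT (-0.26 ± 0.13, adjusted p = 0.987), and it overlaps AT3G58720 on the opposite strand. The VQ family had 16 tested members, a median of -0.06, 1 higher and 0 lower. The 1 was AT3G15300, at 4.44, 4.15 and 4.94 against 3.81, 3.77 and 2.25 FPKM (0.42 ± 0.29, adjusted p = 1). The most abundant VQ gene, AT2G22880, stood at 212, 304 and 180 against 238, 292 and 159 FPKM (-0.03 ± 0.25), with the genotypes overlapping.

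Photosynthesis genes had a median of -0.03 over 34 members, all tested. CA1, a carbonic anhydrase gene, stood at 2980, 2660 and 2940 FPKM in VQ28KO12 against 3430, 3270 and 3420 FPKM in WT (-0.29 ± 0.11, adjusted p = 0.982). RBCS1A, for the small subunit of Rubisco, overlapped at 10100, 10200 and 11100 against 10300, 10800 and 12200 FPKM (-0.13 ± 0.13). Outside the lists, 547 GO terms with 20 to 300 tested genes had medians from -0.25 to 0.24, none beyond 0.3 in either direction, with 21 over 0.1 and 31 under -0.1. Positive gravitropism and response to cyclopentenone were highest at 0.24 each, and plant-type cell wall organization, which holds the expansins, stood at 0.17. Protein stabilization stood at 0.15. Glucosinolate metabolic process also stood at 0.15, with 20 of 28 genes positive, and chromatin silencing at 0.14, with 24 of 29 positive. Glutathione metabolic process was lowest at -0.25, with 18 of 25 genes negative, and jasmonic acid biosynthetic process stood at -0.20, with 20 of 25 negative. These terms share genes with the lists and with each other, and no test was made on them.

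Some loci differed from library to library within a genotype by far more than between the genotypes. Among 10554 genes with a mean of at least 5 FPKM over the 6 libraries, 34 had a library at least 8-fold above or below both others of its genotype (FPKM + 0.1), giving 41 such gaps, 15 in VQ28KO12 and 26 in WT. In 35 the single library was the low one. WT replicate 3 held 14 of them, and the other libraries held 4 to 7 each. GT72B1, a glucosyltransferase gene, stood at 114, 0.999 and 117 FPKM in VQ28KO12 against 96.8, 111 and 135 FPKM in WT, and at 1.12, 2.15 and 1.54 FPKM in VQ28OE9. The library labelled VQ28KO12 replicate 2 was thus at the level of the overexpressor for this gene. AT1G24996 was low in replicate 2 of both genotypes, at 38.0, 0 and 48.4 against 31.0, 0.179 and 28.3 FPKM, and AT1G73602, an upstream open reading frame, likewise at 4.16, 0 and 10.9 against 14.4, 0 and 13.2 FPKM.

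The other wide gaps were AT5G01215, at 0, 33.6 and 21.1 FPKM in VQ28KO12 against 26.5, 0 and 0 FPKM in WT, the ribosomal RNA gene AT2G01010, at 141, 241 and 441 against 172, 311 and 1.02 FPKM, and AT5G67488, at 9.58, 8.83 and 3.56 against 0, 10.5 and 15.0 FPKM. Of a pair of annotated oxidoreductases, AT1G18020 stood at 0, 11.9 and 15.7 against 13.8, 11.6 and 16.7 FPKM, and AT1G17990 at 12.7, 9.30 and 12.5 against 10.9, 9.08 and 0 FPKM. VQ28 itself was among the 34 genes. Of the 34, 38.2% overlap another gene in the deposited table, against 17.2% of the 10554 genes searched, and 7 had such a gap in both genotypes. The part that shared reads between overlapping or near-identical genes play in these gaps was not tested.

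The size of change that these libraries could show depended on the level of the gene. The 95% interval of the log2 fold change had a median half-width of 0.61 for genes at 1 to 5 FPKM, which is 1.52-fold, and of 0.39 at 5 to 20 FPKM, 0.32 at 20 to 100 and 0.33 above. For 84.0% of the tested genes the interval lay inside plus or minus 1, so a 2-fold difference lay outside it. That share was 68.5% at 1 to 5 FPKM and 91.0%, 93.5% and 92.8% in the 3 higher ranges. For the other 2565 genes the interval reached past 1 in one direction or both. Among all tested genes 73 were higher and 124 lower by at least 1 on the log2 scale, 95 of these 197 without overlap. The 5 genes with the smallest p by edgeR, of which 1 was called, had log2 fold changes of at least 1.56 in either direction, and those that DESeq2 called reached down to 0.50.

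**Figure D5:**
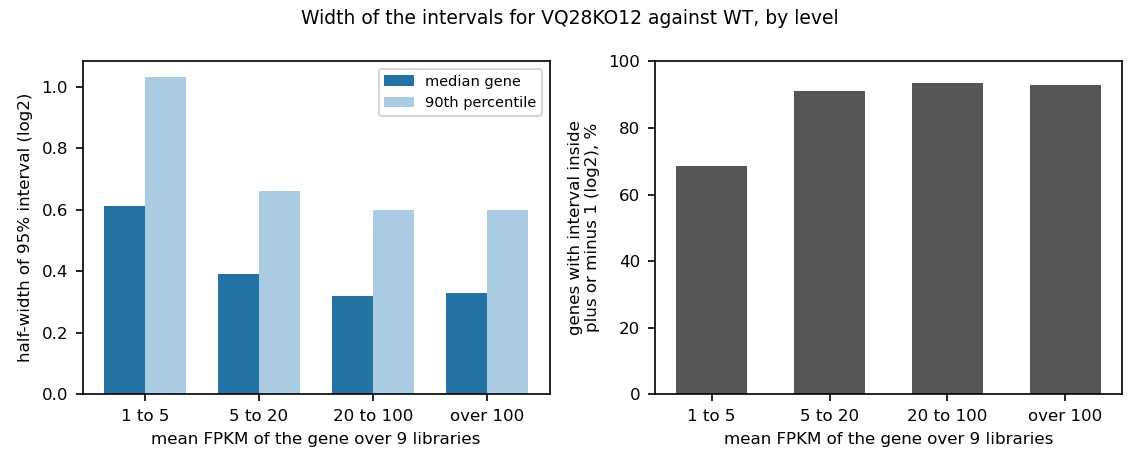
Half-width of the 95% interval of the log2 fold change of VQ28KO12 over WT, for the median gene and the 90th percentile (left), and share of genes whose interval lies inside plus or minus 1 (right), by mean FPKM of the gene. The intervals are those of single genes, not adjusted for the number tested. The median half-width is 0.61 at 1 to 5 FPKM and between 0.32 and 0.39 above, and the share inside is 68.5% at 1 to 5 FPKM and over 90% above.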

How the data were processed

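Poly(A) RNA of rosette leaves was sequenced in pairs from strand-marked libraries, per the labels' protocols. The authors deposited, per the file headers, 1 table with an FPKM value and a whole-number count for each of 33610 genes in each library. No source used here names an aligner, a counting method, its use of strand or a build. The deposited values were handled as estimated counts: multiples of 4 make up 48.7% to 57.0% of low values (1 to 16) in each library, so 1 fragment makes about 4 count units. A gene without counts is listed at 0.0001 FPKM and was set to 0.

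The 16050 genes that averaged 1 FPKM or more in the 9 libraries were tested with edgeR 4.0.16 (TMM, quasi-likelihood, 1 mean per genotype, two-sided), with Benjamini-Hochberg adjustment over all of them and calls at an adjusted p under 0.05. Standard errors were taken as the absolute log2 fold change over the square root of F. DESeq2 1.42.0 and limma 3.58.1 were alternatives, with other filters, scalings and left-out libraries. Lists, 32 in all, are given as counts and medians without a test. The comparison, the genes and the lists were chosen with earlier results of these data known. The genes named were VQ28 and its neighbours, QQS, called genes, the 10 largest differences in log2(FPKM + 1) in each direction without overlap and with at least 5 FPKM in the higher genotype, up to 3 members of a list in each direction, loci at 0 in 1 genotype and the 8 widest gaps of a single library; list members given for context and genes said to be chosen after their values were seen stand outside this rule. Names were matched by locus tag for 32843 genes to RefSeq, whose TAIR10.1 supplied the sequences. All 32843 overlap the RefSeq locus on the same chromosome, and 56.6% share a start or end. Folds against 0 use a floor of 3 fragments, or 12 units, per library, and intervals and floors cover counting error only.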

Additional observations from a re-analysis of the deposited data

How the results depend on the processing

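SADHU3-2 was called in all 18 settings in which it was tested, while the count of called genes moved. edgeR called 1 gene with DESeq2's size factors, 2 without a filter, 0 at a mean of at least 5 FPKM, where SADHU3-2 falls below the filter, 2 with the 6 libraries compared alone and 3 with units divided by 4. DESeq2 called 39, limma 3 on log2(FPKM + 1) and 1 on log2(FPKM + 0.1), and the fits that leave out a replicate called 1 to 4, with 4 without VQ28KO12 replicate 2 and 3 without VQ28OE9 replicate 2. The VQ28 log2 fold change was -0.02 by limma on log2(FPKM + 1) and -0.65 on log2(FPKM + 0.1), and from -0.44 to 0.73 without single replicates, with -0.13, -0.44 and -0.40 without VQ28KO12 replicate 1, VQ28KO12 replicate 2 and WT replicate 2. Genes without overlap numbered 1727 in all, 1136 at a mean of at least 5 FPKM, 1579 in TMM-scaled units and 3020 to 3779 without single replicates, since 2 libraries separate from 3 more easily by construction. Gaps of a single library numbered 69 at 4-fold and 20 at 16-fold, and loci at 0 in 1 genotype numbered 2 with 40 units as the minimum. The share of genes with an interval inside plus or minus 1 ran from 61.7% without a filter to 91.8% at a mean of at least 5 FPKM and was 77.5% to 84.8% without single replicates. Of 568 list medians under the alternatives 14 moved by more than the spread between replicates, and the cause was not tested. Beside the heat shock (0.10), wall loosening (0.08) and leaf senescence (-0.03 to -0.02) lists these were abscisic acid (-0.05 to -0.02), circadian clock (-0.02 to -0.01 without WT replicate 3), flavonoid synthesis (-0.36 without VQ28KO12 replicate 2), antioxidant enzymes (0.01 without WT replicate 1) and dividing cell markers (-0.39 and -0.29 without VQ28KO12 replicates 1 and 3). Of the other named genes, 65 were run under these settings, and no log2 fold change among them changed sign. All 65 were without overlap in FPKM, so leaving out a library could hardly turn a sign. No support is drawn from this count. With a replicate block 1 gene was called, SADHU3-2, at an adjusted p of 0.0279. Same-numbered VQ28KO12 and WT libraries deviated together at correlations of 0.18, 0.27 and 0.05, and the other pairs at -0.22 to 0.06. VQ28KO12 replicates 1 and 2 correlated best with their own number, and replicate 3 with WT replicate 1, at 0.06. No pairing was used in the main fit, and whether same-numbered libraries share an origin was not tested. Intervals were widest for genes at 1 to 5 FPKM, and the part of depth in this was not tested.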
